A study of Homo sapiens with 6 samples.

Results

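The synaptotagmins are a family of membrane traffic proteins, and 7 of their genes are described here: SYT1, SYT7, SYT8, SYT12, SYT14, SYT16 and SYT17. They were chosen, with earlier results of these data known, from a deposited table of 6641 genes, in which Ensembl identifiers were matched to symbols. SYT11 and SYT15B, also in that table, are not among the 7 and are described apart. The table holds RNA sequencing of total RNA from 3 libraries labelled HCC827 and 3 labelled HCC827_Er, both given as human non-small cell lung cancer cells. HCC827 is an established lung adenocarcinoma line with an activating mutation of EGFR. By its title the series compares parental with resistant cells, and its design text asks how histone crotonylation, an acylation of lysines, acts on genes in resistance to EGFR kinase inhibitors. No drug treatment, dose or time is given in the labels for either line. Neither do they say whether HCC827_Er is 1 clone, or that each library is a culture of its own, so the p-values reflect the spread among these libraries, which may be technical.

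A typical synaptotagmin carries a membrane anchor near its start and a pair of C2 domains, modules that bind phospholipids. In some members the C2 domains bind calcium, which drives the protein into the target membrane beside the SNARE proteins that fuse vesicles. The family is best known from neurons, where it times transmitter release. In epithelial cells members act in secretion of granules and lysosomes and in repair of the plasma membrane. Other members lack the acidic residues that hold calcium and have less settled roles.

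Values are FPKM, fragment numbers divided by transcript length and by the size of the library, so levels can be compared between genes. Their sums over the table lay between 222927 and 224211 in the HCC827 libraries and between 184633 and 190415 in the HCC827_Er libraries. The sequencing depth was unknown. The table is not a sample of the transcriptome, since 96.1% of its genes had no overlap between HCC827 and HCC827_Er libraries. Differences were tested with limma on log2(FPKM + 1) over the 5276 genes with at least 1 FPKM in 3 or more libraries. Called genes had an adjusted p below 0.05 and differed by 1 or more on that scale, which is 2-fold. All 7 members passed the minimum. SYT7 and SYT8 passed it through HCC827_Er alone and SYT14 through HCC827 alone, so those 3 had to differ in order to be tested. Of all tested genes 10.7% reached 1 FPKM in all HCC827_Er and no HCC827 library, as SYT7 and SYT8 did, and 6.92% in all HCC827 and no HCC827_Er library, as SYT14 did.

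Of the 7 synaptotagmin genes, 5 were called higher in HCC827_Er (SYT1, SYT7, SYT8, SYT12 and SYT17), 1 was called lower (SYT14), and SYT16 was not called. Of all tested genes, 24.7% were called higher and 19.7% lower, and 98.3% had an adjusted p under 0.05. SYT8, SYT7, SYT12 and SYT14 differed by more than 2 on the log2(FPKM + 1) scale, which 12.6% of tested genes did with a call. SYT1 and SYT17 lay just over the 2-fold minimum, and median-ratio rescaling of the libraries left them uncalled, with 3 members higher and 1 lower. The median difference of the 7 members was 1.17, beside 0.43 for all tested genes, and rests in part on the 3 genes that had to differ. None of the 7 members had overlapping values between HCC827 and HCC827_Er, which was also so for 96.1% of the genes in the table.

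**Figure D1:**
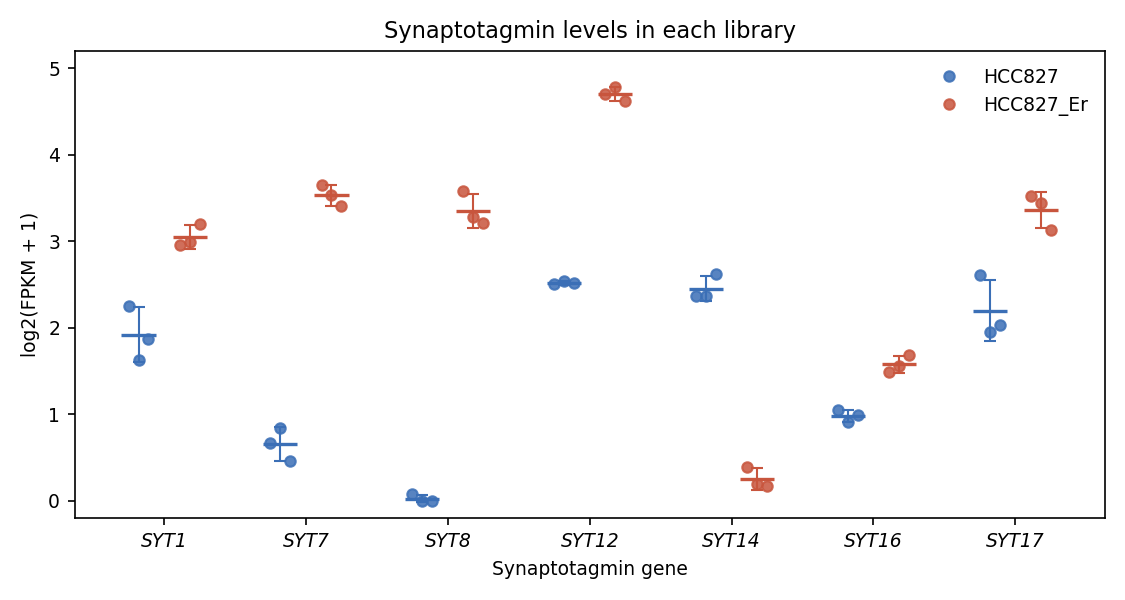
Level of each synaptotagmin gene on the log2(FPKM + 1) axis in the 3 HCC827 (blue) and 3 HCC827_Er (red) libraries; points are libraries, horizontal lines the means and bars the SD. SYT14 alone of the 7 is lower in HCC827_Er, and SYT8 lies at or near 0 in HCC827.

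The members that bind calcium were SYT1 and SYT7. SYT1 (ENSG00000067715) encodes the fast calcium sensor of synaptic vesicle fusion and lies at chr12:78863993-79452008 on the plus strand of GRCh38 in GENCODE 29. SYT1 stood at 3.77, 2.08 and 2.66 FPKM in the HCC827 libraries and at 6.76, 6.91 and 8.19 FPKM in the HCC827_Er libraries. Every HCC827_Er library was above every HCC827 library, and the HCC827 values were the more scattered. The means were 2.84 ± 0.859 and 7.29 ± 0.786 FPKM (SD, n = 3), and the log2 difference was 1.13 (SE 0.17, limma adjusted p = 0.000181). It was 0.85 with median-ratio rescaling, 0.94 with quantile normalization, 0.65 with a pseudocount of 5 and 0.98 without HCC827 replicate 2, under the minimum in each. A noncoding gene on the opposite strand, ENSG00000257894, overlaps SYT1 and stood at 1.84 ± 0.208 and 3.16 ± 0.230 FPKM. Strand-specific counting is not stated, so reads of this pair cannot be told apart where they overlap.

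SYT7 (ENSG00000011347, chr11:61515313-61581148, minus strand) encodes a slow calcium sensor of high affinity, which acts in lysosome exocytosis and membrane repair outside neurons. SYT7 stood at 0.59, 0.79 and 0.37 FPKM in HCC827 and at 11.51, 10.56 and 9.62 FPKM in HCC827_Er. It was thus under 1 FPKM in each HCC827 library and near 10 or above in each HCC827_Er library. The means were 0.583 ± 0.210 and 10.6 ± 0.945 FPKM, a ratio of 18.1, and the log2 difference was 2.87 (SE 0.13, adjusted p = 1.37e-07). On the FPKM scale SYT7 thus moved from the last but one of the 7 members to the second.

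SYT8 and SYT12 belong to the members that lack calcium-binding residues. SYT8 (ENSG00000149043, chr11:1828307-1837521, plus strand) has been described in exocytosis of the sperm acrosome. SYT8 was listed at 0.05, 0 and 0 FPKM in HCC827, and at 10.90, 8.67 and 8.21 FPKM in HCC827_Er. No fold is given, since it was listed at 0 in all but 1 HCC827 library. The log2 difference of 3.33 (SE 0.13, adjusted p = 4.00e-08) was the largest of the 7 and ranked 147 by size among all tested genes.

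SYT12 (ENSG00000173227, chr11:67006778-67050863, plus strand) encodes a vesicle protein that protein kinase A phosphorylates in neurons. SYT12 stood at 4.65, 4.81 and 4.72 FPKM in HCC827 and at 25.03, 26.54 and 23.59 FPKM in HCC827_Er. Its HCC827 libraries lay closer together than those of the other members with comparable levels. The means were 4.73 ± 0.0802 and 25.1 ± 1.48 FPKM, a ratio of 5.30, and the log2 difference was 2.18 (SE 0.085, adjusted p = 4.50e-08). It passed the minimum in all 6 libraries and had the highest mean of the 7 in both lines, within the range of SYT14 in HCC827.

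SYT14 and SYT16 are close relatives of each other and do not need calcium to bind membranes. SYT14 (ENSG00000143469, chr1:209938174-210171389, plus strand) stood at 4.16, 4.17 and 5.13 FPKM in HCC827 and at 0.31, 0.14 and 0.12 FPKM in HCC827_Er. All HCC827 libraries were above 4 FPKM and all HCC827_Er libraries under 1 FPKM. The means were 4.49 ± 0.557 and 0.190 ± 0.104 FPKM, a ratio of 23.6 in favour of HCC827, and the log2 difference was -2.20 (SE 0.12, adjusted p = 3.73e-07). With a pseudocount of 5 in place of 1, which damps low values, it was -0.87 and not called. SYT16 (ENSG00000139973, chr14:61811974-62112550, plus strand), which has no membrane anchor, stood at 1.07, 0.88 and 0.98 FPKM in HCC827 and at 1.79, 1.95 and 2.21 FPKM in HCC827_Er. The means of SYT16 were 0.977 ± 0.0950 and 1.98 ± 0.212 FPKM, a ratio of 2.03. On the log2(FPKM + 1) scale, which shrinks low values, the SYT16 difference was 0.59 (SE 0.11, 95% interval 0.35 to 0.84, adjusted p = 0.000629), under the 2-fold minimum.

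SYT17 (ENSG00000103528, chr16:19167971-19268334, plus strand) was first described in brain and kidney and is held to membranes by fatty acids rather than by a spanning segment. SYT17 stood at 5.08, 2.87 and 3.08 FPKM in HCC827 and at 10.46, 9.89 and 7.72 FPKM in HCC827_Er. The groups did not overlap, but each had a library apart from the others, replicate 1 in HCC827 and replicate 3 in HCC827_Er. The means were 3.68 ± 1.22 and 9.36 ± 1.45 FPKM, a ratio of 2.54, and the log2 difference was 1.17 (SE 0.19, adjusted p = 0.000305). SYT17 was not called with median-ratio rescaling (0.87), with quantile normalization or with a pseudocount of 5 (0.73).

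**Figure D2:**
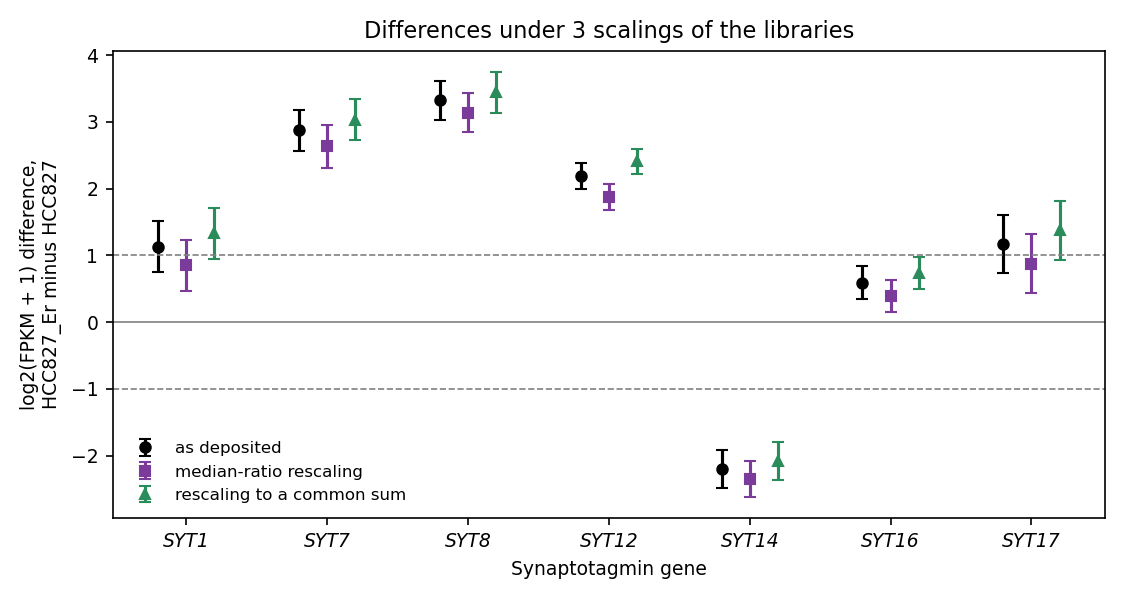
Difference between the lines (HCC827_Er minus HCC827, log2(FPKM + 1)) of each member with its 95% interval from limma, as deposited (circles), with median-ratio rescaling (squares) and with rescaling to a common sum (triangles); dashed lines mark the 2-fold minimum. SYT1 and SYT17 cross the minimum with the scaling, while SYT7, SYT8, SYT12 and SYT14 stay beyond it.

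The scaling of the libraries set the side of the minimum for the members with moderate differences. Median-ratio rescaling moved HCC827_Er against HCC827 by -0.34 on the log2 scale of FPKM, and rescaling to a common library sum moved it by 0.25. Both factors were computed from the listed genes alone, which are not a sample of the transcriptome, so which scaling is right cannot be told. Under these rescalings, 17.0% and 34.6% of tested genes were called higher and 31.4% and 15.0% lower. No member changed its direction under either. SYT8 differed by 3.14 and 3.44, SYT7 by 2.63 and 3.03, SYT12 by 1.87 and 2.41, and SYT14 by -2.34 and -2.08, in this order of rescaling.

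The promoter regions of SYT1, SYT14 and SYT16 were matched in RefSeq sequences on GRCh38.p14, and SYT7, SYT8, SYT12 and SYT17 were not. They are shown because they set a member that fell beside a pair with higher levels in HCC827_Er. Each is the 250 bases before an annotated transcript start, on the plus strand, at chr12:78864524-78864773, chr1:209937967-209938216, chr14:61811912-61812161 and chr14:61927445-61927694. Capitals mark matches on either strand to 6 motifs. The CCAAT box is spelled CCAAT and the GC box is spelled GGGCGG. The E-box searched for was CACGTG. A core of cyclic AMP response elements was searched for as TGACG. The element of the factor AP-1 was searched for as TGANTCA and the core of the TATA box was searched for as TATAAA.
SYT1: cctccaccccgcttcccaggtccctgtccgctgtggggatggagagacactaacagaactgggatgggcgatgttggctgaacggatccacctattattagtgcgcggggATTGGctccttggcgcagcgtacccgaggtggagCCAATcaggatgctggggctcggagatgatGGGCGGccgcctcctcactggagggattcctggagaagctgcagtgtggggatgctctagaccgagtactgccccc
SYT14: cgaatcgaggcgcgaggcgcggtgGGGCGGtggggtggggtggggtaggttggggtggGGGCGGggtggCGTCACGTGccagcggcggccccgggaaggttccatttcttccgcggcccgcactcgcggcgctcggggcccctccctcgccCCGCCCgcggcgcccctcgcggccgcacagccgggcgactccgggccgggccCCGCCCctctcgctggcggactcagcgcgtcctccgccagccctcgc
SYT16, first start: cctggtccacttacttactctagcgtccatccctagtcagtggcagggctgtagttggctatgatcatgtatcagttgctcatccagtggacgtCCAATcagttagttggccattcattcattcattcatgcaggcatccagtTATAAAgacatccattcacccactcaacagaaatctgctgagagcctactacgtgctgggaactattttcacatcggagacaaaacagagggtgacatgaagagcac
SYT16, second start: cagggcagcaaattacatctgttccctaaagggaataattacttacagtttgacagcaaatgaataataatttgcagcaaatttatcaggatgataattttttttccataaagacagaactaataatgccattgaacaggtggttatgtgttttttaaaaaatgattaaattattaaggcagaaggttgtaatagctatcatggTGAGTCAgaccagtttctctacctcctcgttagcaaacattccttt

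These windows differed in base composition. SYT14, the member that fell, had 80.4% G and C and 39 CpG pairs, SYT1 had 62.0% and 13, and the SYT16 windows had 46.8% and 4 and 32.8% and 1. The medians over 35114 RefSeq windows of this length were 58.0% and 11 CpG pairs. The SYT14 window held 4 matches to the GC box, and 42.6% of all windows hold at least 1. It also held 1 match to the E-box, found in 6.35% of windows, overlapping 1 to TGACG (21.2%). SYT1 held 2 matches to CCAAT (at least 1 in 32.0% of windows) on opposite strands and 1 to the GC box. The first SYT16 window held 1 match to CCAAT and 1 to TATAAA (10.7%), and the second held 1 to TGANTCA (6.57%). These letters do not show that a factor binds there, and the values per gene do not show which start was used.

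The order of the members by FPKM differed between the lines. In HCC827 the order was SYT12, SYT14, SYT17, SYT1, SYT16, SYT7 and SYT8, and the ranges of the first 4 overlapped from each to the next. In HCC827_Er it was SYT12, SYT7, SYT17, SYT8, SYT1, SYT16 and SYT14. There SYT12 stood clear of the others, SYT7, SYT17 and SYT8 overlapped, and the lower 3 were separate.

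The summed FPKM of the 7 members was 19.4, 15.6 and 16.9 in HCC827 and 66.8, 64.7 and 59.7 in HCC827_Er. Each HCC827_Er library was thus above each HCC827 library, with means of 17.3 ± 1.91 and 63.7 ± 3.65 FPKM and a ratio of 3.68. The exact two-sided permutation p was 0.1, the smallest that 3 against 3 libraries can give. Such a separation was close to given beforehand, since 96.1% of the genes in the table had no overlap between the lines. The sum also includes SYT7 and SYT8, which passed the minimum through HCC827_Er alone, and SYT14, which passed it through HCC827 alone. SYT14 made up 26.2% of the sum in HCC827 and 0.294% in HCC827_Er. SYT7 and SYT8 together went the other way, at 3.43% and 0.0860% in HCC827 and 16.6% and 14.5% in HCC827_Er. The share of SYT12 was 27.6% in HCC827 and 39.4% in HCC827_Er.

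**Figure D3:**
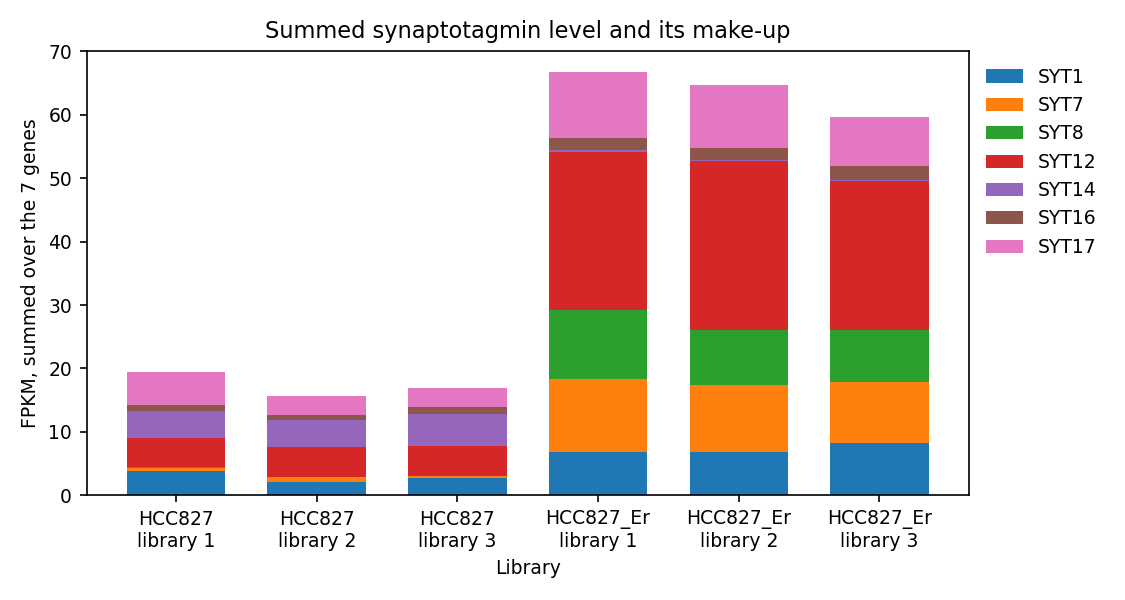
FPKM of the 7 synaptotagmin genes stacked for each of the 6 libraries. The sums lie between 15.6 and 19.4 FPKM in HCC827 and between 59.7 and 66.8 FPKM in HCC827_Er, and SYT14 (purple) is a visible part of the HCC827 bars alone.

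Of the other synaptotagmins, SYT11 and SYT15B were in the table used here, both at low levels. SYT11, which does not bind calcium, was listed at 0.20, 0.32 and 0.29 FPKM in HCC827 and at 0, 0.05 and 0.07 FPKM in HCC827_Er, under the minimum for testing. SYT15B stood at 0.667 ± 0.0493 and 1.07 ± 0.0520 FPKM (log2 difference 0.31, limma adjusted p = 0.0102) and was not called. It passed the minimum through HCC827_Er alone, so it had to be higher there in order to be tested. SYT15B has a near-identical copy, SYT15, so the split of its reads is uncertain. The remaining 9 names of that list were not analysed here.

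Other proteins with C2 domains that act in membrane traffic moved both ways, as did the whole table. Of 38 such names 18 were listed and 15 were tested. Of these 15, 6 were called higher and 5 lower (4 and 6 with median-ratio rescaling, 7 and 4 with the common sum). Over all tested genes the shares were 24.7% and 19.7% (17.0% and 31.4%, then 34.6% and 15.0%). The median difference of the 15 was 0.78, beside 0.43 for all tested genes. The 15 include SYTL1 and ESYT3, which passed the minimum through HCC827_Er alone, and UNC13A and DOC2B, which passed it through HCC827 alone. Those genes had to differ in order to be tested. SYTL1, a synaptotagmin-like protein that binds the secretory GTPase RAB27, rose from 0.680 ± 0.130 to 14.4 ± 0.207 FPKM (log2 difference 3.19, adjusted p = 2.11e-08). The priming factor of synaptic vesicles UNC13A fell from 8.57 ± 2.58 to 0.523 ± 0.365 FPKM. DOC2B, a calcium sensor of spontaneous and slow release, fell from 6.35 ± 1.33 to 0.537 ± 0.0289 FPKM. DYSF, which encodes the membrane repair protein dysferlin, fell from 7.70 ± 0.528 to 1.26 ± 0.173 FPKM.

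The SNAREs form the fusion complex itself. Of 37 SNARE names 10 were listed and 9 were tested, so most SNARE genes are not described here. Of these 9, 1 was called higher and 3 lower (0 and 4, then 2 and 1 with the rescalings). Over all tested genes the shares were 24.7% and 19.7% (17.0% and 31.4%, then 34.6% and 15.0% with the rescalings). The median difference of the 9 tested SNAREs was -0.64, beside 0.43 for all tested genes. STX11, a syntaxin of secretory granules in immune cells, fell from 7.58 ± 0.817 to 0.517 ± 0.0289 FPKM and passed the minimum through HCC827 alone. The endosomal syntaxin STX7 fell from 29.6 ± 2.53 to 12.4 ± 1.16 FPKM and STX2, a plasma membrane syntaxin, from 10.9 ± 2.35 to 4.21 ± 0.661 FPKM. STX8, also endosomal, rose from 22.1 ± 2.60 to 53.5 ± 5.51 FPKM. The calls of STX7 and STX2 were lost with the common sum and with a pseudocount of 5, and that of STX8 with median-ratio rescaling.

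Of 38 names of regulators of tethering and fusion, 12 were listed and all 12 were tested. Of these 12, 4 were called higher and 3 lower (2 and 5, then 4 and 2 with the rescalings). Over all tested genes the shares were 24.7% and 19.7% (17.0% and 31.4%, then 34.6% and 15.0%). The median of the regulators was -0.096, and positive (0.076) with the common sum, beside 0.43 and 0.61 for all tested genes. RAB27B, a GTPase of secretory granules, rose from 1.76 ± 0.191 to 7.13 ± 0.935 FPKM. SYTL4, granuphilin, which binds RAB27 and syntaxin and is counted among the C2-domain proteins as well, rose from 3.32 ± 0.306 to 9.85 ± 0.681 FPKM. RAB3B, another GTPase of regulated secretion, fell from 13.0 ± 0.825 to 3.31 ± 0.204 FPKM. EXOC3L4, a relative of an exocyst subunit, fell from 8.88 ± 2.40 to 2.19 ± 0.650 FPKM. RAB27B, SYTL4 and EXOC3L4 were not called with a pseudocount of 5.

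**Figure D4:**
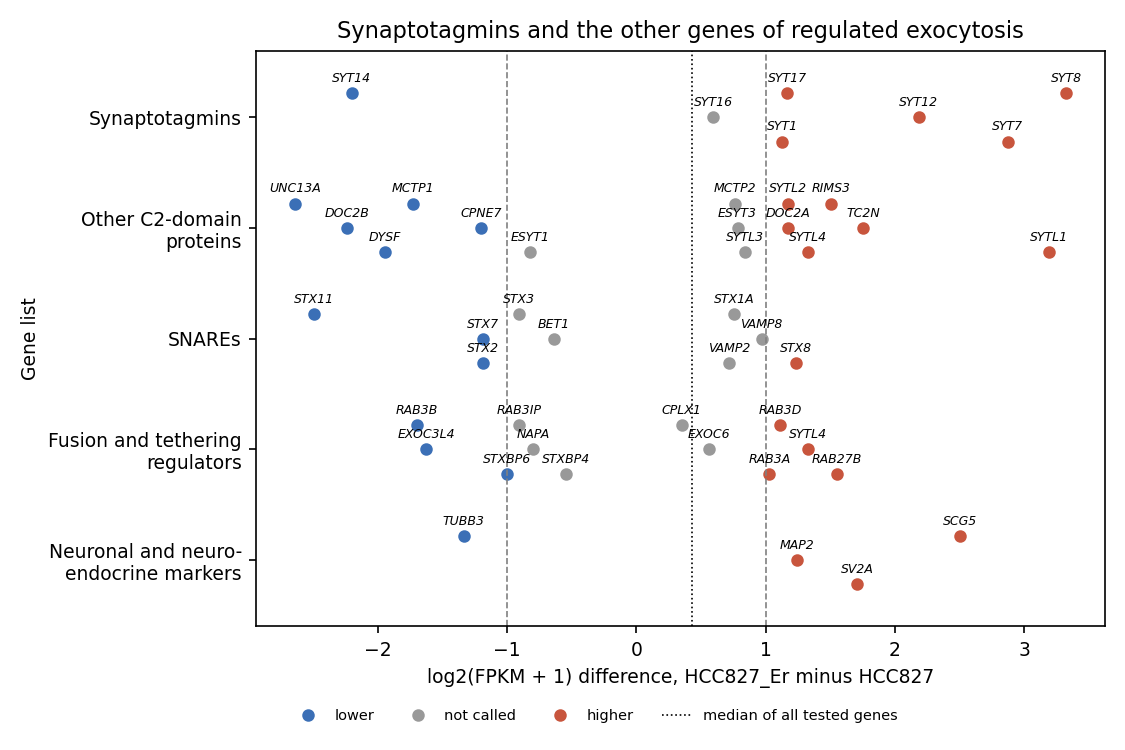
Difference between the lines of every tested gene of 5 lists (HCC827_Er minus HCC827, log2(FPKM + 1)), coloured by call; dashed lines mark the 2-fold minimum and the dotted line the median of all tested genes, 0.43. Each list holds genes on both sides of 0, and SYT8, SYTL1 and SYT7 lie farthest to the right.

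SYT1 is also used as a neuronal gene, and other markers of neuronal and neuroendocrine cells were set beside it. Of 26 such names 6 were in the table and 4 were tested, with 3 called higher and 1 lower, beside 24.7% and 19.7% of all tested genes. The 3 called higher, SCG5, SV2A and MAP2, passed the minimum through HCC827_Er alone, so they had to differ in order to be tested. SCG5, a secretory granule chaperone, rose from 0.227 ± 0.0924 to 5.97 ± 0.358 FPKM. The synaptic vesicle protein gene SV2A rose from 0.293 ± 0.0850 to 3.23 ± 0.371 FPKM, and MAP2, a dendritic microtubule protein, from 0.180 ± 0.185 to 1.81 ± 0.612 FPKM. TUBB3, a tubulin of neurons that many carcinoma lines express, fell from 222 ± 6.67 to 87.6 ± 8.73 FPKM. NCAM1 and DCX, not tested, had lower values in each HCC827_Er library than in each HCC827 library, at 0.363 ± 0.0208 and 0.0533 ± 0.0681 FPKM for NCAM1 and 0.237 ± 0.0651 and 0.0100 ± 0.0173 FPKM for DCX. SV2A and MAP2 were not called with a pseudocount of 5. All 6 markers summed to between 215.93 and 228.23 FPKM in HCC827 and between 89.96 and 108.04 FPKM in HCC827_Er. Without TUBB3 the order was the opposite, with sums between 1.16 and 1.45 FPKM in HCC827 and between 10.57 and 11.36 FPKM in HCC827_Er, and their part in the SYT1 difference was not tested. In bulk RNA, more cells that express a gene and more RNA per cell cannot be told apart.

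Genes with the most similar pattern were sought for the 3 members with the largest differences. Likeness was the root-mean-square distance between profiles of log2(FPKM + 1) over the 6 libraries, each centred on its own mean. Such a distance tends to be small for any genes that differ by like amounts between the lines, and shared regulation was not tested. SYT8 was closest to MLPH, which encodes melanophilin, a link between RAB27 and myosin (distance 0.053), then to FXYD3 (0.074) and NFATC4 (0.078). MLPH stood at 4.36 ± 0.196 and 52.5 ± 5.62 FPKM, FXYD3 at 0 and 8.84 ± 1.80 FPKM, and NFATC4 at 0.350 ± 0.0954 and 11.6 ± 1.29 FPKM. Among the genes closest to SYT7 were XDH (0.091) and SYK (0.12), and SYT14 was closest to ABCA3 (0.060), SOGA3 (0.068) and ANTXR1 (0.068). Such neighbours were numerous: within a distance of 0.2 lay 37 protein-coding genes for SYT8, 46 for SYT7 and 95 for SYT14.

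The members lie apart in the genome, with SYT7, SYT8 and SYT12 on different parts of chromosome 11 and the others on chromosomes 1, 12, 14 and 16. Of 284 tested genes on chromosome 11, 23.6% were called higher and 19.4% lower, near the shares of the whole table. On chromosomes 1, 12, 14 and 16 the shares were 24.1%, 19.5%, 33.3% and 16.8% higher and 19.4%, 25.9%, 8.24% and 23.1% lower. Chromosome 14, with SYT16, departed most from the whole table. Within 500 kb of the starts of the 7 members lay 32 other tested genes, of which 7 were called higher, 10 lower and 15 were not called. The shares over all tested genes, 24.7% higher and 19.7% lower, belong beside these counts and those of single members below.

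Downstream of SYT8 lay 3 tested genes, TNNI2, H19 and LSP1, all called higher. Like SYT8 they reached 1 FPKM in HCC827_Er libraries alone, so they had to be higher there in order to be tested. TNNI2, a troponin subunit gene on the same strand 1.47 kb beyond the end of SYT8, was listed at 0 in all HCC827 libraries and at 2.93, 6.93 and 6.41 FPKM in HCC827_Er. The imprinted noncoding gene H19, with its start 173 kb downstream, was listed at 0, 0.09 and 0 FPKM in HCC827 and at 22.3, 16.37 and 14.54 FPKM in HCC827_Er. LSP1, an actin-binding protein of leukocytes 24.7 kb downstream, stood at 0.29, 0.14 and 0 FPKM in HCC827 and at 14.47, 1.25 and 1.17 FPKM in HCC827_Er. Its call rested on HCC827_Er replicate 1, since without that library the LSP1 difference was 0.96 in place of 1.89, and it was also lost without HCC827 replicate 3 and with a pseudocount of 5. On the upstream side the nearest protein-coding gene of the table, CTSD of the lysosomal protease cathepsin D, fell from 588 ± 29.4 to 252 ± 20.5 FPKM. DUSP8 and BRSK2, farther upstream, were called lower as well. With the common sum CTSD and BRSK2 were not called, nor CTSD with quantile normalization or DUSP8 and BRSK2 with a pseudocount of 5. LSP1, H19, DUSP8 and BRSK2 were named after their values were seen.

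None of the 7 tested genes around SYT7 was called higher and 1, FADS3, was called lower, and FADS3 was named after its values were seen. Next to SYT12, C11orf86 rose from 0.997 ± 0.217 to 3.34 ± 0.248 FPKM (a call lost under quantile normalization, a pseudocount of 5 or median-ratio rescaling), while CLCF1 on the other side stood at 36.2 ± 1.22 and 24.3 ± 1.94 FPKM. Around SYT14, 2 of 8 tested genes were called higher and 3 lower, with UTP25 (14.7 and 9.93 FPKM, not called) and SERTAD4-AS1 (8.61 and 3.75 FPKM) nearest. SERTAD4-AS1 was called lower, but not with the common sum, with a pseudocount of 5, without HCC827_Er replicate 3 or without HCC827 replicate 1. Around SYT16, 2 of 3 tested genes were called lower, the noncoding LINC03033 (24.1 and 7.75 FPKM) and LINC01303 (17.5 and 6.85 FPKM), which overlap on opposite strands and were named after their values were seen. LINC01303 was not called with a pseudocount of 5 or without HCC827_Er replicate 3. The gene next to SYT16 was HIF1A, the hypoxia-inducible factor, at 418 ± 19.9 and 288 ± 11.7 FPKM and not called. On the other side PPP2R5E, 1259 kb away, stood at 12.9 and 24.0 FPKM and was called higher with the common sum alone. SYT17 lay between TMC7, at 1.17 and 2.32 FPKM and not called, and TMC5, a member of the transmembrane channel-like family, which rose from 2.78 ± 0.603 to 31.9 ± 1.77 FPKM. No tested gene had its start within 500 kb of that of SYT1, whose nearest listed genes beyond the overlapping noncoding one were NAV3, called lower (18.3 and 7.35 FPKM; not with the common sum or a pseudocount of 5), and OTOGL, not tested (0.0133 and 1.05 FPKM).

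**Figure D5:**
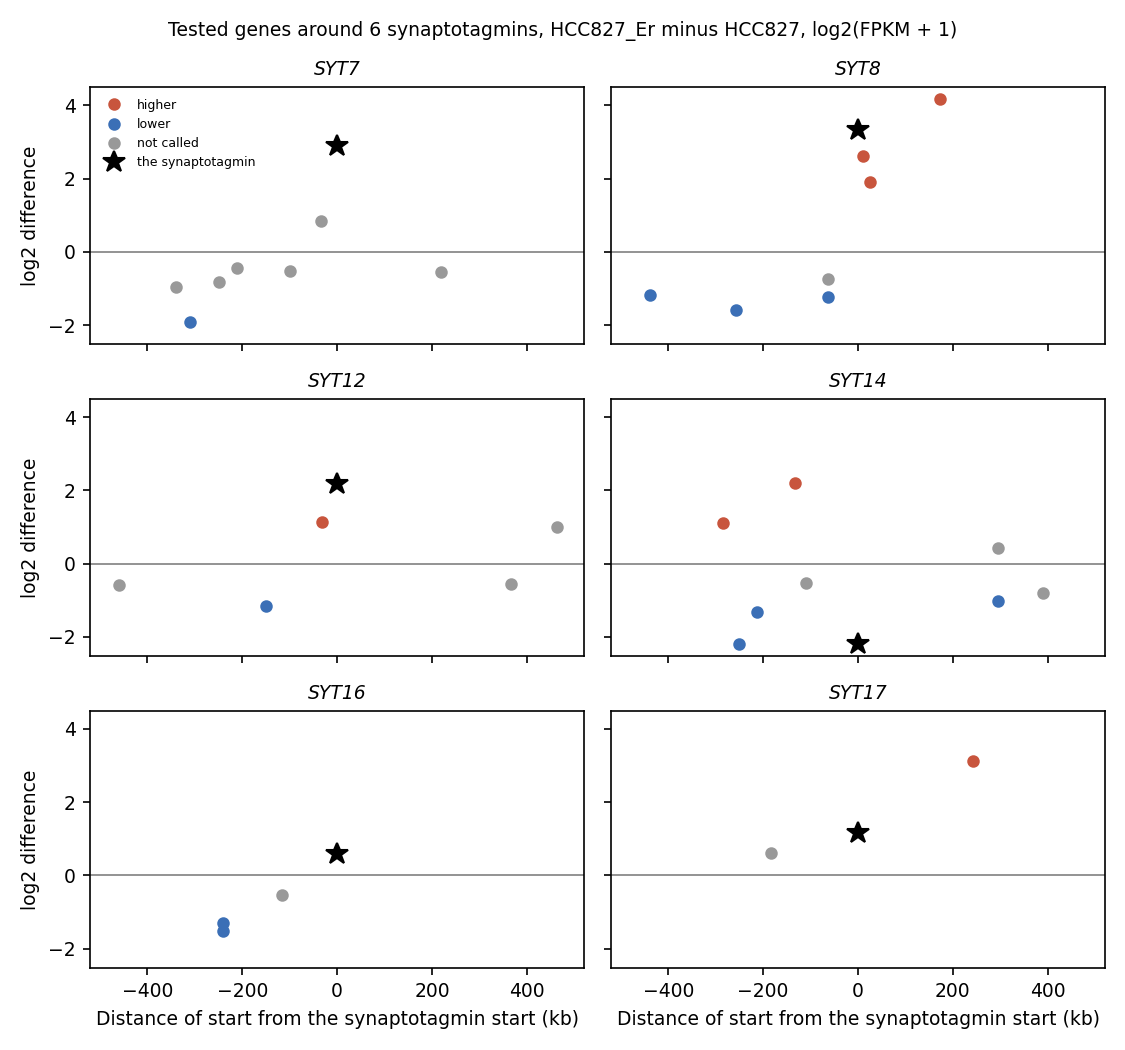
Difference between the lines (log2(FPKM + 1), HCC827_Er minus HCC827) of the tested genes within 500 kb of 6 synaptotagmin starts, against the distance of their starts in the direction of transcription (negative is upstream); the star is the synaptotagmin. Around SYT8 the 3 genes downstream were called higher, and of the 4 upstream 3 were called lower and 1 was not called.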

How the data were processed

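RNA of 6 libraries, 3 labelled HCC827 and 3 HCC827_Er, was made into libraries with an Illumina TruSeq kit, per the labels. The values deposited by the authors are FPKM per gene. Per the submitters' processing notes fastp, HISAT2 and StringTie were used, and GRCh38.p14 and hg19 are named as builds with no roles. Not given in the sources used here were tool versions, strandedness, the annotation and why only these genes are listed. FPKM falls for all genes when a few very abundant ones rise, and it hides depth and counting error.

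Symbols were matched for 6636 of 6641 genes, and positions in GENCODE 29 on GRCh38 for 6353. The values were fitted as log2(FPKM + 1) with limma 3.58.1 in R 4.3.3 (line as the only term, eBayes with trend). Benjamini-Hochberg adjustment ran over the 5276 tested genes, of which 98.3% had an adjusted p under 0.05. The adjusted p-values thus refer to these genes only and not to the whole transcriptome. The steps were tested on simulated data. A single sum was tested by exact permutation.

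The members and lists were chosen with earlier results of these data known. Named were all members, up to 4 called genes per list with the largest differences (2 tested genes of highest mean where none was called), the 3 closest profiles of 3 members (1 of them is not reported here), the nearest listed gene on each side, and the markers. Alternatives were other pseudocounts, minima, scalings and limma settings, a replicate block, and fits that each left out 1 library. Same-numbered libraries of the lines did not deviate together (correlations of 0.106, -0.022 and 0.049), so they were not treated as pairs.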

Additional observations from a re-analysis of the deposited data

How the results depend on the processing

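No member changed direction under any alternative run. Of 108 values of single members under 15 or 16 alternatives each, 100 kept their side of the threshold and 8 lost a call, namely 4 of SYT1, 3 of SYT17 and 1 of SYT14. Other minima, other limma settings and the replicate block leave each difference as it was. A call could change there only through the adjusted p, so part of the 100 was close to given beforehand. The members called higher were 3 with a pseudocount of 5, with median-ratio rescaling, with quantile normalization, and with a minimum of 1 FPKM in all 6 libraries. Those called lower were 0 with a pseudocount of 5, where SYT14 differed by -0.87, and 0 with that minimum, which left only SYT1, SYT12 and SYT17 to test. Over all genes, 579 were called higher and 506 lower with a pseudocount of 5, 753 and 650 with the minimum in all libraries, and 1657 lower with median-ratio rescaling, against 1304 and 1041. Leaving out each library in turn gave 4 to 5 members higher and 1 lower, 1298 to 1334 genes higher and 1034 to 1056 lower, and a difference of the summed FPKM between 44.9 and 48.4. With the replicate number as a block the differences stayed the same. There 5 members were called higher and 1 lower, and no member's call changed. Pseudocounts moved the size of the low members most: SYT8 differed by 6.34 with 0.1 and by 1.50 with 5, and SYT7 by 4.01 and 1.48. Depth is unknown, so values under 1 FPKM carry a counting error that cannot be given.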
